A study of Mus musculus with 33 samples.

Results

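Mouse retinal progenitor cells after 5 days of cone induction were compared with the same kind of cells after 5 days of rod induction. The comparison takes 6 of the 33 RNA sequencing libraries of the series, the 3 labelled cone induction and the 3 labelled rod induction at that day. The cells came from the retina of C57BL/6J mice at embryonic day 14. Cone induction used COCO, a secreted protein that blocks TGF-beta, BMP and Wnt ligands, and rod induction used taurine with retinoic acid. The cone primed and rod primed cells of day 0 and the cone and rod induced cells of day 12, 3 libraries in each group, were set beside day 5 to test where the difference between the conditions changed. The labels do not give the culture protocol, so whether the factors were still in the medium at collection is not known here. They also do not say that the 3 libraries of a group came from separate cultures or animals, and p-values then measure only the spread between libraries of a group, which may be technical. In the main model this spread is estimated over all 11 groups of the series and not from day 5 alone.

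Retinal progenitors divide and, as they leave the cell cycle, give rise to ganglion, horizontal, cone, amacrine, rod and bipolar cells and to Muller glia. Retinoic acid is made from vitamin A, binds nuclear receptors of the RAR and RXR families and is broken down by the CYP26 enzymes, whose genes are themselves switched on by it. It patterns the eye and favours rods in retinal cultures. BMP signalling drives the Id genes and the inhibitory Smads, and sets dorsal identity in the retina. The developing retina takes up much glucose and turns a large part of it into lactate.

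Expression is given in CPM, the gene's count scaled by the TMM-adjusted size of its library to a common total, with the values of replicates 1, 2 and 3 in that order. Differences are log2 fold changes of cone over rod ± SE from 1 edgeR quasi-likelihood model of all 33 libraries, n = 3 per group, so a positive value is higher in cone cells. A gene was called when its Benjamini-Hochberg adjusted p was under 0.05. Of 18150 genes tested, 1685 were called (9.28%), 632 higher in cone cells (3.48%) and 1053 lower (5.8%), and the median difference of all genes tested was 0.0084. At least 2-fold differences were called for 930 genes (5.12%), and at least 4-fold differences for 188 higher and 169 lower genes. In 5957 genes (32.8%) the libraries of the groups did not overlap, with all cone libraries above all rod libraries in 16.8% of genes and the reverse in 16.1%. Counts of list members below are to be read against these shares. The number called fell to 891 without rod replicate 1, to 969 without cone replicate 1 and to 1051 without cone replicate 2. It was 2780 in a model of the 6 libraries alone, where 49.7% of the calls were higher in cone cells against 37.5% in the model of all libraries, and 3371 with limma's voom quality weights (47.9% higher).

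Gene counts ran from 12351009 to 14032694 in cone libraries and from 8165696 to 12242569 in rod libraries, and rod replicate 1 was the shallowest. Cone libraries had 22822 to 23476 genes with a count and rod libraries 21465 to 22327. Mitochondrial genes took 10.2% to 10.5% of gene counts in cone libraries and 11.4% to 17.0% in rod libraries. Genes annotated over ribosomal RNA took 17.7% to 19.0% and 19.3% to 23.9%. None of these measures, the gene counts included, overlapped between the groups (exact two-sided permutation p 0.1 for each, the smallest that 3 against 3 libraries allow). Their part in the results below was not tested. A count of 0 allows up to 3 counts, or 0.174 to 0.337 CPM in these libraries, for counting error only.

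**Figure D1:**
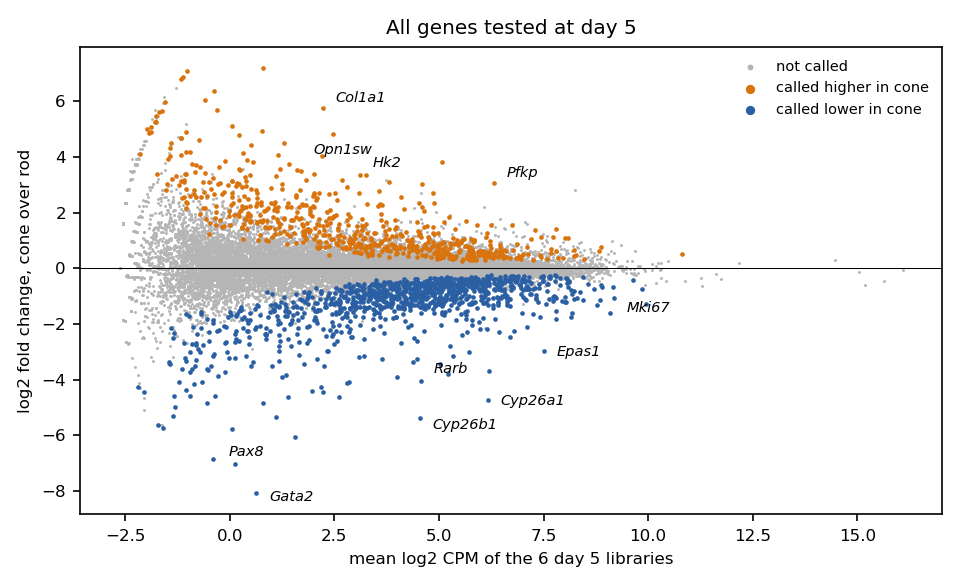
Difference between cone and rod cells at day 5 (log2 fold change, vertical) against mean level (log2 CPM of the 6 libraries, horizontal), each point a gene and colours marking the 632 genes called higher and the 1053 called lower in cone cells. The retinoic acid genes Rarb, Cyp26a1 and Cyp26b1 and the transcription factor genes Gata2 and Pax8 lie far below 0, and Col1a1, Pfkp and Hk2 far above.

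Genes of the retinoic acid pathway gave some of the widest gaps between the conditions. The promoters of Rarb and Cyp26a1 are shown because both genes were among the most different and both hold a direct repeat of the kind that RAR and RXR receptors bind. Each is the 250 bases before the gene's start in RefSeq on GRCm38.p6, 5′ to 3′ on the gene's strand, and the capitals mark the repeat. The search asked for a pair of hexamers in the same orientation with 5 bases between them, on both strands. Each hexamer could be AGGTCA, could start with a different base as in GGGTCA, could differ inside as in AGTTCA, or could combine these changes as in GGTTCA.
Rarb, chr14:16575477-16575726, minus strand, repeat 53 to 37 bases before the start: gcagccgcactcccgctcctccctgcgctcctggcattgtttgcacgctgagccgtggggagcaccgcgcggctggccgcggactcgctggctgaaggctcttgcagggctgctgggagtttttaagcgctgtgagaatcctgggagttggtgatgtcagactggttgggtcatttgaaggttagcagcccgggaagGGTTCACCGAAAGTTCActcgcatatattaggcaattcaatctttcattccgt
Cyp26a1, chr19:37697558-37697807, plus strand, repeat on the opposite strand 32 to 16 bases before the start: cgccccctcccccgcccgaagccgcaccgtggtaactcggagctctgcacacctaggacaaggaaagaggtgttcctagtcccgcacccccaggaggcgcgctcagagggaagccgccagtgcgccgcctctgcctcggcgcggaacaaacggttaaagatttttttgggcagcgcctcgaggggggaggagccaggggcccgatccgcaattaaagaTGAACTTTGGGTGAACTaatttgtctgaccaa
Of 27025 genes with such a window 28 held a repeat (0.104%), and 10 of the 28 were tested. Of these 10, 4 were called lower in cone cells, namely Rarb, Cyp26a1, Syndig1 (-2.54, adjusted p 0.000100 by edgeR) and Gm14133 (-3.11, adjusted p 3.22e-07), and 0 were called higher. Over all genes tested 5.8% were called lower and 3.48% higher. Rarb and Cyp26a1 were chosen for their difference, so the count is not a test of the repeat. A match in these letters is a description of the window and not a measured binding site.

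The enzymes that break down retinoic acid were lower in cone cells. Cyp26a1 had 12.9, 13.6 and 15.4 CPM in cone libraries and 373, 411 and 321 CPM in rod libraries. Cyp26b1 had 4.08, 1.82 and 5.35 CPM against 184, 105 and 177 CPM. In both genes every rod library was far above every cone library, with differences of -4.72 ± 0.41 (adjusted p 1.92e-08 by edgeR) and -5.37 ± 0.65 (adjusted p 4.40e-06). Of the 4 genes of the breakdown list 2 were called, both lower. Cyp26c1 (means of 0.183 and 0.782 CPM, adjusted p 0.216) and Cyp1b1, a cytochrome with a broader range of substrates (1.83, adjusted p 0.0701), were not.

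Among the receptors, Rarb, which encodes a retinoic acid receptor and is itself a target of the pathway, had 4.94, 5.84 and 6.63 CPM in cone libraries and 108, 87.8 and 92.8 CPM in rod libraries. The groups stood wide apart and the libraries within each were close, with a difference of -4.04 ± 0.23 (adjusted p 1.25e-11 by edgeR), 16.5-fold lower in cone cells. The other receptors tested were not called. Rara had 0.62 ± 0.22 (adjusted p 0.0718), Rarg -0.82 ± 0.27 (adjusted p 0.0583), Rxra 0.43 ± 0.18 (adjusted p 0.145) and Rxrb 0.10 ± 0.14 (adjusted p 0.736). Of the 21 genes in the list of receptors and direct targets 11 were tested and Rarb alone was called (9.09%, against 9.28% of all genes tested). The 5 Hox and Cdx genes of the list, targets of retinoic acid in the trunk and hindbrain, were too low to be tested, as were 5 others.

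Enzymes and carriers that move vitamin A and its products were called lower in 4 of 14 cases and higher in 0. Of the 14 differences 9 were negative and 5 positive, and the largest positive one, 4.89, was not called. Dhrs3, a reductase that turns retinal back into retinol, had 7.35, 17.9 and 5.87 CPM in cone libraries and 119, 93.5 and 127 CPM in rod libraries. Every rod library was far above every cone library, with a difference of -3.45 ± 0.31 (adjusted p 3.24e-08 by edgeR). Lrat, which esterifies retinol for storage, had 0.200, 0 and 0.0581 CPM against 8.87, 2.93 and 3.47 CPM, a difference of -5.76 ± 1.00 (adjusted p 0.000622). The transthyretin gene Ttr had 3 counts in all cone libraries and 73 in all rod libraries, a rod over cone ratio of 31.7 with a 95% counting interval of 10.4 to 157. The genes of the synthesis steps themselves were not called. Rdh10, which makes retinal from retinol, had -0.11 (adjusted p 0.779), and Aldh1a1, which makes retinoic acid in the dorsal retina, had 0.94 (adjusted p 0.319). These 4 calls and those of Cyp26a1, Cyp26b1 and Rarb were kept when any 1 of the 6 libraries was left out.

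**Figure D2:**
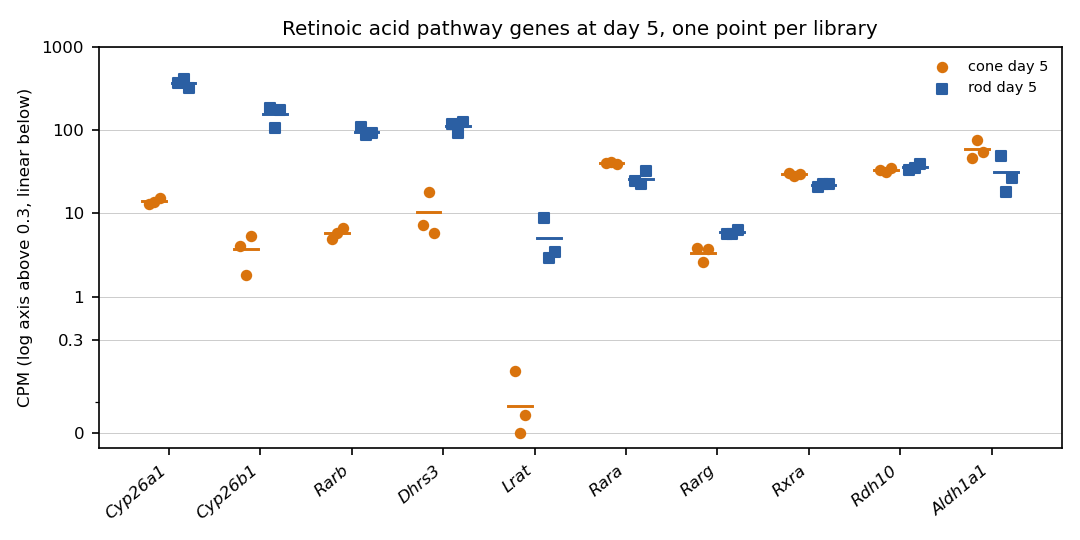
Levels of 10 retinoic acid pathway genes at day 5 in CPM (vertical, log above 0.3 and linear below), a point per library and a bar at the mean of each group of 3. The first 5 genes are lower in every cone library than in any rod library, while Rdh10 and Aldh1a1 overlap between the groups.

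The difference in this pathway was already present in the primed cells of day 0 and changed in size. At day 0 Rarb had 0.252, 0.647 and 0.943 CPM in cone primed and 93.7, 105 and 93.6 CPM in rod primed libraries, a difference of -7.24 ± 0.32, and at day 12 it had 21.2, 18.7 and 22.9 CPM and 139, 67.7 and 143 CPM, a difference of -2.48 ± 0.21. Cone levels were higher at each later day, while rod libraries of all 3 days stayed between 67.7 and 143 CPM. The change in the difference was 3.20 ± 0.41 from day 0 to day 5 (adjusted p 0.000201 by edgeR) and 1.56 ± 0.30 from day 5 to day 12 (adjusted p 0.00726). Over all genes, 102 (0.562%) were called for a change from day 0 to day 5, 78 of them upward (0.43%) and 24 downward (0.132%). For the change from day 5 to day 12, 583 were called (3.21%), 380 upward (2.09%) and 203 downward (1.12%). The upward share of these calls, 65.2%, was 55.7% with DESeq2's size factors and 53.7% with genes of at least 1 CPM. Calls numbered 93 upward and 94 downward without cone replicate 2 of day 5, and 142 and 158 without cone replicate 3 of day 5. Dhrs3 was also called for the first change (adjusted p 0.00240), from -7.52 at day 0. Cyp26a1, with -3.35 at day 0 and -5.57 at day 12, was called for neither (adjusted p 0.298 and 0.393).

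A group of transcription factors was close to silent in cone cells and present in rod cells. Of the 8 genes of the list of rod-culture factors, which was chosen because its members stood out in these data, 4 were called lower and 0 higher. Pax8, a paired box factor, had 0, 0.243 and 0.756 CPM in cone libraries and 29.5, 13.7 and 27.9 CPM in rod libraries. Pou3f4, a POU domain factor, had 0.334, 0.365 and 0.116 CPM against 13.8, 12.4 and 7.36 CPM. Every cone library was below 1 CPM and far under every rod library for both genes, and the differences were -6.06 ± 0.92 (adjusted p 7.88e-05 by edgeR) and -5.33 ± 0.56 (adjusted p 4.14e-07). The zinc finger factor gene Gata2 had 2 counts in all cone libraries and 465 in all rod libraries, a rod over cone ratio of 303 with a 95% counting interval of 83.4 to 2511. The related gene Gata3 was not called (1.41, adjusted p 0.208), nor was Pax5 (-0.79, adjusted p 0.606). The call of Pou3f2 (-0.89, adjusted p 0.0498) was lost when any 1 of the 6 libraries was left out (adjusted p 0.0627 to 0.198). En2, a homeobox factor of the midbrain and hindbrain border that was named among the largest falls, had 1.40, 2.13 and 1.51 CPM in cone libraries and 32.9, 25.1 and 28.7 CPM in rod libraries, a difference of -4.09 ± 0.42 (adjusted p 3.02e-07).

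Genes that pattern the retina from dorsal to ventral were lower in cone cells in 7 of 18 cases and higher in 1. The dorsal factor gene Tbx2 had 42.1, 53.4 and 59.1 CPM in cone libraries and 291, 195 and 255 CPM in rod libraries. All rod libraries were above all cone libraries, a difference of -2.26 ± 0.26 (adjusted p 1.92e-06 by edgeR). Tbx5, another dorsal factor, had 6.68, 6.63 and 13.8 CPM against 17.0, 2.22 and 13.6 CPM. The groups overlapped, with rod replicate 1 the highest and rod replicate 2 the lowest of the 6 libraries (-0.25 ± 0.93, adjusted p 0.911), and the sign turned to 0.19 without rod replicate 1. The ventral factor gene Vax2 also overlapped, with 5.95, 2.68 and 2.56 CPM against 11.5, 5.08 and 11.9 CPM (-1.34 ± 0.45, adjusted p 0.0574). The related gene Vax1 was called higher (2.75 ± 0.84, adjusted p 0.0375), a call lost without cone replicate 1 or 3 or without any rod replicate (adjusted p 0.0579 to 0.213). The orphan receptor gene Nr2f1 (-1.46 ± 0.20, adjusted p 2.61e-05), the ephrin gene Efnb2 (-1.23 ± 0.24, adjusted p 0.00134) and the ephrin receptor gene Ephb2 (-1.16 ± 0.21, adjusted p 0.000569) were called lower, with no overlap between groups. The median of the list was -0.64.

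Genes of the eye field and of retinal progenitors were lower in cone cells in 7 of 16 cases. Pax2, a marker of the optic stalk, had 7.88, 4.50 and 8.72 CPM in cone libraries and 59.2, 24.2 and 51.7 CPM in rod libraries. The secreted Wnt modulator gene Sfrp2 had 16.8, 16.8 and 38.4 CPM against 107, 124 and 118 CPM, with cone replicate 3 the highest of its group and still far below the rod libraries. The differences were -2.67 ± 0.37 (adjusted p 2.29e-05 by edgeR) and -2.27 ± 0.35 (adjusted p 8.45e-05). The nuclear receptor gene Nr2e1 (-1.37 ± 0.26, adjusted p 0.00104) and the eye field gene Lhx2 (-0.82 ± 0.18, adjusted p 0.00457) were also called lower. Hes5, a Notch effector, was the member called higher, with 6.41, 6.81 and 10.5 CPM against 1.24, 0.929 and 1.25 CPM (2.80 ± 0.41, adjusted p 4.80e-05), while the related gene Hes1 was called lower (-0.86 ± 0.21, adjusted p 0.00794), a call lost without cone replicate 2 (0.0766). The eye field factor genes Rax and Pax6 were not called. Rax had 81.4, 93.0 and 99.4 CPM against 85.1, 74.4 and 77.8 CPM (0.21 ± 0.19, adjusted p 0.573), and Pax6 had means of 395 and 382 CPM (0.05, adjusted p 0.882). The number of members called was 5 without cone replicate 2.

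Genes of dividing cells were lower in cone cells. In the mitosis list 17 of 20 genes were called lower (85%, against 5.8% of all genes tested) and 0 higher, and the median difference was -1.14. In all 20 genes every rod library was above every cone library, which held for 16.1% of all genes tested. Mki67, a marker of cycling cells, had 331, 423 and 462 CPM in cone libraries and 889, 843 and 814 CPM in rod libraries. Cone replicate 1 was the lowest and the rod libraries lay close together, a difference of -1.07 ± 0.29 (adjusted p 0.0199 by edgeR). The kinesin genes Kif11 (-1.24 ± 0.25, adjusted p 0.00186) and Kif23 (-1.16 ± 0.25, adjusted p 0.00307) had the smallest p-values of the list with the spindle gene Nusap1 (-1.28 ± 0.27, adjusted p 0.00264). These libraries are of bulk RNA, in which fewer cells of a type and less RNA per cell cannot be told apart. The calls rested on single libraries to a degree. Without cone replicate 1 they numbered 5, without rod replicate 1 they numbered 8 and without cone replicate 2 they numbered 10, and the call of Mki67 was lost without cone replicate 1 (0.124), cone replicate 2 (0.0668) or rod replicate 1 (0.0697).

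In the DNA replication list 12 of 20 genes were called lower (60%, against 5.8% of all genes tested) and 0 higher, with a median of -0.87. In 19 of the 20 the rod libraries were all above the cone libraries, against 16.1% of all genes tested. Rrm2, a subunit of the enzyme that makes deoxynucleotides, had 18.4, 21.1 and 19.1 CPM in cone libraries and 67.4, 49.6 and 58.2 CPM in rod libraries (-1.58 ± 0.31, adjusted p 0.00141 by edgeR). Pcna, the sliding clamp of the replication fork, had 26.3, 30.6 and 29.1 CPM against 66.0, 48.8 and 50.7 CPM (-0.94 ± 0.18, adjusted p 0.00124). The groups were apart in both. The calls in this list numbered 4 without cone replicate 1, 6 without rod replicate 1 and 7 without cone replicate 2. Of 18 genes that control entry into the cycle 7 were called lower and 0 higher. Ccnd2, a D-type cyclin, had 105, 85.9 and 88.9 CPM in cone libraries and 327, 275 and 339 CPM in rod libraries (-1.75 ± 0.33, adjusted p 0.000874). Its difference was -4.17 at day 0 and 0.75 at day 12, and both changes were called (adjusted p 0.0169 and 0.00424). The inhibitor genes Cdkn2c (-1.47 ± 0.27, adjusted p 0.000866) and Cdkn1c (-1.28 ± 0.33, adjusted p 0.0128) were called lower as well, so members that promote and members that restrain the cycle were both among the calls. The call of Cdkn1c was lost without cone replicate 2 (0.0570), cone replicate 3 (0.0890) or rod replicate 1 (0.0891). At day 12 the medians of the mitosis and DNA replication lists were 0.16 and 0.13, and the change from day 5 was called for 7 and 4 of their genes.

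**Figure D3:**
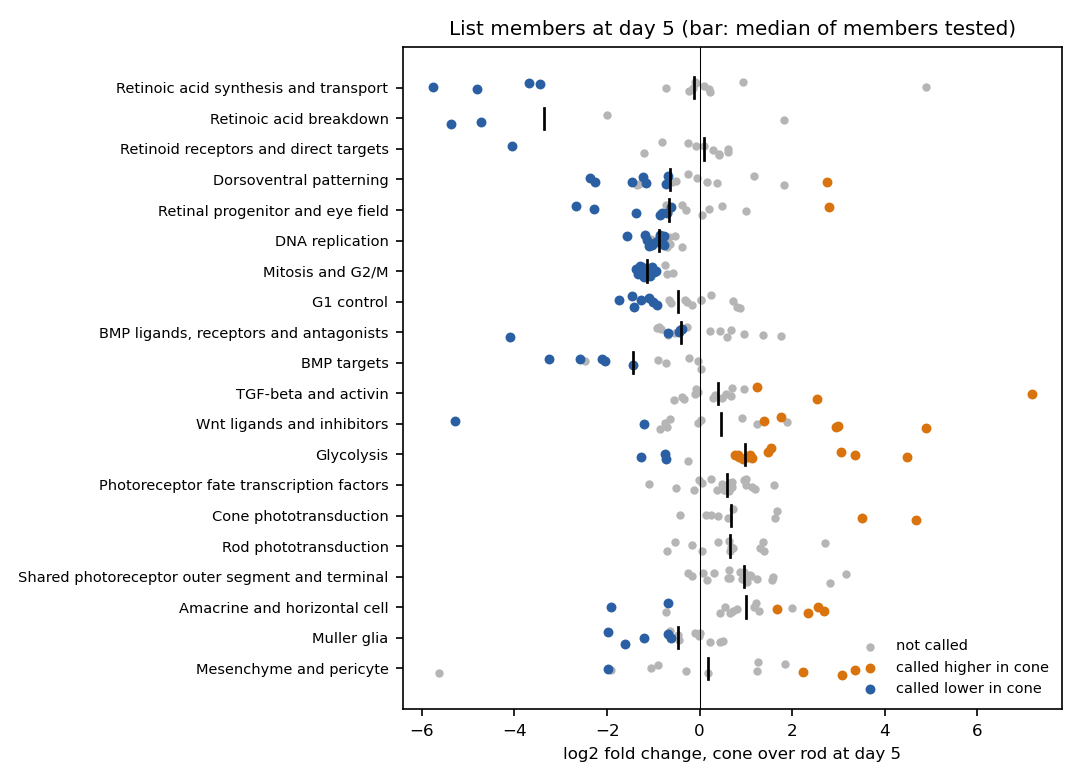
Log2 fold change of cone over rod at day 5 (horizontal) for the tested members of 20 gene lists, a point per gene, colours marking members called higher or lower in cone cells and a bar at the list's median. All 20 members of the mitosis list and all 20 of the DNA replication list lie below 0, and 12 of the 16 glycolysis genes lie above.

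Among BMP ligands, receptors and antagonists 5 of 18 tested genes were called lower and 0 higher. Bmp2, a ligand, had 2.81, 1.09 and 1.22 CPM in cone libraries and 35.5, 16.9 and 35.3 CPM in rod libraries. Rod replicate 2 was the lowest of the rod libraries and still well above every cone library (-4.11 ± 0.37, adjusted p 4.00e-08 by edgeR). The receptor genes Bmpr1a, Bmpr2 and Acvr1 were lower by less, with -0.43 ± 0.11, -0.39 ± 0.08 and -0.68 ± 0.15 (adjusted p 0.0115, 0.00141 and 0.00422). Gdf11, a ligand of the same family, was the other call (-0.45 ± 0.14, adjusted p 0.0356), lost without any 1 library but rod replicate 2 (adjusted p 0.0890 to 0.133). The call of Bmpr1a was lost without cone replicate 1 (0.0683), cone replicate 3 (0.0827) or rod replicate 2 (0.0745), and 3 members were called without cone replicate 1 or without cone replicate 3. Dand5, the mouse gene of the COCO protein, was present at 5.08, 6.26 and 5.11 CPM in cone libraries and 4.94, 4.50 and 4.72 CPM in rod libraries (0.22 ± 0.27, adjusted p 0.693). The antagonist genes Nog, Chrd, Grem1 and Fst were not called (adjusted p 0.569, 0.245, 0.686 and 0.727).

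Of 11 genes that respond to BMP 5 were called lower and 0 higher, with a median of -1.45. Atoh8, a helix-loop-helix factor, had 5.61, 7.90 and 8.08 CPM in cone libraries and 81.0, 55.2 and 71.8 CPM in rod libraries. Id2, an inhibitor of helix-loop-helix factors, had 16.6, 14.7 and 17.6 CPM against 72.6, 57.0 and 73.7 CPM. Smad6, an inhibitory Smad, had 1.94, 1.76 and 1.28 CPM against 8.20, 5.43 and 7.85 CPM. In each of the 3 genes all rod libraries were above all cone libraries, and the differences were -3.26 ± 0.27, -2.05 ± 0.26 and -2.10 ± 0.28 (adjusted p 7.94e-09, 7.47e-06 and 1.71e-05 by edgeR). Smad9 (-2.58 ± 0.40, adjusted p 9.05e-05) and Id3 (-1.45 ± 0.33, adjusted p 0.00471) were the other calls. Id1 (-0.72, adjusted p 0.132), Id4 (-0.03, adjusted p 0.968) and Smad7 (0.03, adjusted p 0.957) were not called. The number of calls stayed at 5 when any 1 of the 6 libraries was left out. At day 12 the median of the list was -0.03, and the change from day 5 was called for Atoh8 (adjusted p 0.00150) and Smad6 (adjusted p 0.00754).

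Genes of the TGF-beta pathway were higher in cone cells in 3 of 16 cases and lower in 0. Ltbp2, a matrix protein that binds microfibrils (2.54 ± 0.65, adjusted p 0.0134 by edgeR), was not called without cone replicate 1 (0.113) or rod replicate 2 (0.0790), and Ccn2, a connective tissue growth factor (1.23 ± 0.36, adjusted p 0.0284), was not called without cone replicate 1 (0.0782), cone replicate 3 (0.0507), rod replicate 2 (0.136) or rod replicate 3 (0.149). The ligand and receptor genes of the list were not called, and 1 member was called without cone replicate 1 or without rod replicate 2.

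In the list of Wnt ligands and inhibitors, which also holds receptor genes, 5 of 16 tested were called higher and 2 lower. Wnt7b, a ligand, had 5.21, 1.46 and 0.814 CPM in cone libraries and 0.562, 0.214 and 0.208 CPM in rod libraries, with cone replicate 1 well above the others (2.98 ± 0.66, adjusted p 0.00389 by edgeR, but not called without cone replicate 1 (0.0775)). The inhibitor genes Dkk2 (2.94 ± 0.76, adjusted p 0.0134) and Sfrp1 (1.39 ± 0.36, adjusted p 0.0132) were called higher, and the receptor gene Fzd1 was called lower (-1.21 ± 0.25, adjusted p 0.00216). Wnt2b (adjusted p 0.0488) and Rspo3 (14 counts against 0, adjusted p 0.0470) were called higher, and both calls were lost without any 1 of the 6 libraries (adjusted p 0.0614 to 0.186 and 0.0675 to 0.126). Dkk1, the other call lower, had 1 count in cone and 37 in rod libraries, most of them in rod replicate 1, and was not called without cone replicate 1 (0.0774), cone replicate 2 (0.0788) or rod replicate 1 (0.261). Of this list 2 genes were called without cone replicate 1, and 3 without rod replicate 1 or without rod replicate 3. The calls of Dkk2 and Sfrp1 were lost without 2 and 3 of the libraries (adjusted p 0.0555 to 0.0844 and 0.0514 to 0.0889). Among 9 tested Wnt targets Tcf7, Notum and Znrf3 were called lower and 0 higher, and 0 were called without cone replicate 1 or cone replicate 2, while Axin2, a general readout of the pathway, had -0.13 (adjusted p 0.749).

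Of 15 tested genes of FGF signalling 4 were called lower and 1 higher. Spred2, a brake on the pathway, had 30.7, 25.2 and 29.2 CPM in cone libraries and 102, 73.0 and 95.2 CPM in rod libraries (-1.66 ± 0.17, adjusted p 3.26e-07 by edgeR), and the ETS factor gene Etv1 had 49.2, 40.1 and 47.4 CPM against 123, 118 and 98.5 CPM (-1.31 ± 0.15, adjusted p 1.92e-06). Neither overlapped between groups. The feedback genes Dusp6, Etv4 and Etv5 were not called (adjusted p 0.570, 0.693 and 0.0769). The calls numbered 2 without cone replicate 2 and 3 without cone replicate 1 or without rod replicate 1. In the Sonic hedgehog list the co-receptor gene Cdon was the call (-1.12 ± 0.16, adjusted p 2.29e-05), and Ptch1 and Gli1 were not called (adjusted p 0.780 and 0.0649). That is 1 of 11 tested genes, 9.09%, near the 9.28% of all genes tested. Of 18 Notch genes the ligand genes Dll3 (2.16 ± 0.51, adjusted p 0.00609, lost without cone replicate 3 (0.0547)) and Jag1 (1.34 ± 0.35, adjusted p 0.0129, lost without rod replicate 3 (0.0908)) were called higher. The share called, 11.1%, was near that of all genes. Slc6a6, the taurine transporter gene, was not called (0.53 ± 0.22, adjusted p 0.134). Of 7 tested genes of taurine and glycine handling 0 were called in the main edgeR model and 4 had an unadjusted p under 0.05. For these 7 genes DESeq2 called 0, voom quality weights 2 and a model of the 6 libraries alone 2. Of 12 p53 targets 0 were called, 2 had an unadjusted p under 0.05 and DESeq2 called 1.

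Of 16 glycolysis genes 15 were called at day 5, 12 higher and 3 lower in cone cells. The promoters of Hk2 and Slc16a3 are shown because these genes, the hexokinase of the entry step and a lactate exporter, differed most in the list. Capitals mark ACGTG, the core of the element bound by hypoxia inducible factors and part of other sites such as the E-box CACGTG. The windows are as for Rarb.
Hk2, chr6:82774455-82774704, minus strand, ACGTG on the opposite strand at 226 to 222 and 52 to 48 bases before the start: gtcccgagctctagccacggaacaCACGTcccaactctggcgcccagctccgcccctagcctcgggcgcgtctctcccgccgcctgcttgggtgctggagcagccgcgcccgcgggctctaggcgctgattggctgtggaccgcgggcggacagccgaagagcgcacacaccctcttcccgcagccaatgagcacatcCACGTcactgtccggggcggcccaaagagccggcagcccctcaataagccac
Slc16a3, chr11:120948817-120949066, plus strand, ACGTG at 27 to 23 and 14 to 10 bases before the start: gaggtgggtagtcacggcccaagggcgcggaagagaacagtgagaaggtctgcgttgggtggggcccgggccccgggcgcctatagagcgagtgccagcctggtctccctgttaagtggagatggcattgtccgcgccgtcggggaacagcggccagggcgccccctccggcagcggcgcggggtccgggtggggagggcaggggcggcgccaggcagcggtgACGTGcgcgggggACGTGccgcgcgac
On either strand ACGTG was found in 4998 of 27025 windows (18.5%), in 24.3% of the windows of tested genes and in 8 of the 16 glycolysis genes, 1 of them Slc2a1, which was lower in cone cells. Of the 2853 tested genes that held it 118 were called higher and 170 lower. Over all genes tested the shares were 3.48% higher and 5.8% lower.

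Hk2 had 33.1, 26.9 and 22.3 CPM in cone libraries and 3.48, 1.79 and 2.92 CPM in rod libraries. Slc16a3 had 15.1, 9.12 and 8.19 CPM against 0.225, 0.357 and 0.764 CPM. Pfkp, a phosphofructokinase subunit, had 276, 221 and 196 CPM against 26.5, 24.7 and 31.8 CPM. All cone libraries were far above all rod libraries, with cone replicate 1 the highest each time, and the differences were 3.35 ± 0.30, 4.49 ± 0.79 and 3.06 ± 0.65 (adjusted p 3.24e-08, 0.000504 and 0.00260 by edgeR). Pfkl, another subunit of that enzyme, had 1.55 ± 0.24 (adjusted p 0.000124), and Pdk1, a kinase that keeps pyruvate out of the mitochondria, had 1.49 ± 0.30 (adjusted p 0.00154). Aldoa, Tpi1, Gapdh, Pgk1, Pgam1, Pkm and Ldha, enzymes from aldolase to lactate dehydrogenase other than enolase, were each called higher by 0.77 to 1.14. The call of Ldha was lost without any 1 of the 6 libraries (adjusted p 0.0545 to 0.170).

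The members called lower in cone cells were Eno1, which encodes enolase, Slc2a1 and Hk1. Slc2a3, a glucose transporter gene outside the list that is given further below, was called higher. Eno1 had 757, 627 and 538 CPM in cone libraries and 1649.5, 1322 and 1659 CPM in rod libraries (-1.27 ± 0.18, adjusted p 3.85e-05 by edgeR). The glucose transporter gene Slc2a1 (-0.75 ± 0.20, adjusted p 0.0154) lost its call without cone replicate 2 (0.0997), cone replicate 3 (0.126) or rod replicate 1 (0.107). The hexokinase gene Hk1 (-0.73 ± 0.17, adjusted p 0.00647) lost its call without cone replicate 3 (0.0791). Gpi1 was not called (-0.25 ± 0.16, adjusted p 0.364). The median of the list was 0.99, and the summed level of its genes overlapped between the groups, 2652 to 3525 CPM in cone and 2716 to 3263 CPM in rod libraries. Several of these genes, among them Gapdh, Pgk1, Ldha, Tpi1, Pgam1, Eno1, Aldoa and Pkm, have near-identical copies in the genome, and their counts are uncertain to that extent. The counts of 12 higher and 3 lower held under each of the 8 other fits of the counts that kept all 6 libraries, and leaving out 1 of the 6 gave 11 higher and 1 to 3 lower.

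The glycolysis difference changed between days. At day 0 the median of the list was -0.03 and at day 12 it was -0.47. Hk2 had 4.53, 3.56 and 2.41 CPM in cone primed and 4.20, 3.02 and 3.23 CPM in rod primed libraries, and at day 12 it had 33.9, 28.8 and 30.9 CPM in cone and 21.3, 30.6 and 12.5 CPM in rod libraries. Cone libraries of day 12 lay near those of day 5, and rod libraries of day 12 were all above those of day 5. The change in its difference was 3.34 ± 0.44 from day 0 to day 5 (adjusted p 0.000201 by edgeR) and -2.81 ± 0.39 from day 5 to day 12 (adjusted p 0.000669). From day 0 to day 5 the change was called for 3 of the 16 genes, Hk2, Pgk1 and Pdk1, all upward, and for 8 with DESeq2, with voom or in a model of the libraries compared. It was 1 without cone primed replicate 3, rod primed replicate 1 or 2, cone day 5 replicate 1 or rod day 5 replicate 2. From day 5 to day 12 it was called for 11 of the 16, all downward. This count was 5 without cone day 12 replicate 3 or without rod day 12 replicate 2, 7 without cone replicate 1, rod replicate 1 or rod replicate 2 of day 5 or without cone day 12 replicate 1, and 3 in a model of the libraries compared.

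**Figure D4:**
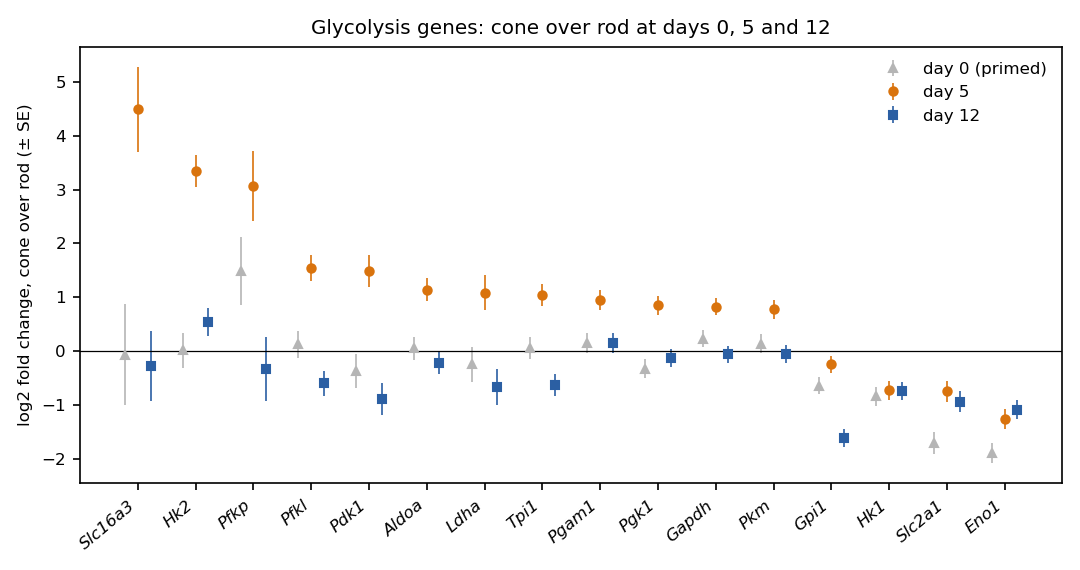
Log2 fold change of cone over rod (vertical, ± SE of the model, n = 3 libraries per group) for the 16 glycolysis genes at day 0, day 5 and day 12. At day 5 the 12 genes called higher lie between 0.77 and 4.49, and at days 0 and 12 most of them lie near or below 0.

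Photoreceptor genes had mostly positive differences at day 5, for rod and cone genes alike, and 2 were called. Of 22 photoreceptor fate transcription factors 0 were called, 18 were positive, 4 had an unadjusted p under 0.05, DESeq2 called 1 and the median was 0.59. In 10 of these genes all cone libraries were above all rod libraries, which held for 16.8% of all genes tested. Otx2, which commits cells to the photoreceptor and bipolar fates, had 302, 307 and 321 CPM in cone libraries and 149.8, 259.6 and 169.7 CPM in rod libraries (0.68 ± 0.44, 95% interval -0.23 to 1.59, adjusted p 0.381 by edgeR). Crx, which acts downstream of Otx2 in both rods and cones, had 577, 698 and 638 CPM against 359.7, 545 and 432 CPM (0.52 ± 0.60, 95% interval -0.71 to 1.74, adjusted p 0.666). In both genes rod replicate 2 came closest to the cone libraries and the groups did not overlap.

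The factors that direct the rod fate had their highest values in cone libraries. Nrl, which specifies rods, had 120.2, 149.5 and 113 CPM in cone libraries and 33.6, 76.2 and 56.5 CPM in rod libraries. Nr2e3, which represses cone genes in rods, had 187, 261 and 179.9 CPM against 24.4, 112 and 70.6 CPM. Neither difference was larger than the spread the model of all libraries allows, 1.20 ± 0.97 (95% interval -0.79 to 3.18, adjusted p 0.503 by edgeR) and 1.60 ± 1.23 (95% interval -0.94 to 4.13, adjusted p 0.480), and in both rod replicate 1 was lowest. That spread takes in other days. Rod libraries of day 12 had 0.428, 105 and 3.10 CPM for Nrl and 0.571, 153 and 5.62 CPM for Nr2e3, and their part in the result was not tested. Thrb, a thyroid hormone receptor of early cones, had 50.6, 64.4 and 44.4 CPM against 33.5, 56.3 and 45.2 CPM (0.24 ± 0.41, adjusted p 0.790), and Rxrg, its partner in cones, had 5.01, 2.37 and 4.36 CPM against 1.46, 1.36 and 2.99 CPM (0.99 ± 0.48, adjusted p 0.225). The groups overlapped in both.

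Sox15, the factor named in the title of the series, was near the limit of detection. It had 0.334, 0.608 and 1.10 CPM in cone libraries and 0.225, 0.786 and 0.208 CPM in rod libraries, 34 counts against 16 in all. The groups overlapped, and the difference of 0.70 ± 0.69 (95% interval -0.71 to 2.11, adjusted p 0.597 by edgeR) was not called. At this depth a difference within that interval could not be told from none.

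Of 13 cone phototransduction genes 10 were tested and 2 were called, both higher in cone cells. Opn1sw, the short wavelength cone opsin, had 18.7, 5.96 and 9.76 CPM in cone libraries and 0.337, 1.43 and 1.11 CPM in rod libraries. Cone replicate 1 was highest and rod replicate 1 lowest, the groups were apart, and the difference was 3.51 ± 0.95 (adjusted p 0.0184 by edgeR). The call was lost without cone replicate 1 (0.0881), rod replicate 1 (0.101) or rod replicate 3 (0.0620). Cnga3, a subunit of the cone cation channel, had 45 counts in cone and 1 in rod libraries, a ratio of 34.5 with a 95% counting interval of 5.89 to 1393. Arr3, cone arrestin, had 1.87, 2.61 and 2.67 CPM against 0.337, 0.858 and 0.972 CPM (1.67 ± 0.69, adjusted p 0.143), and Gnat2, cone transducin, had 10.2, 7.17 and 6.80 CPM against 6.74, 6.43 and 7.22 CPM (0.24 ± 0.51, adjusted p 0.837). Arr3 did not overlap between groups and Gnat2 did. The medium wavelength opsin gene Opn1mw had a count of 0 in all 6 libraries, which allows up to 0.174 to 0.337 CPM.

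Of 13 rod genes and 21 genes used by both cell types 0 were called in the main edgeR model, 2 of each had an unadjusted p under 0.05, and DESeq2 called 0 and 1. Gnat1, rod transducin, had 10.2, 54.5 and 7.73 CPM in cone libraries and 22.9, 36.5 and 57.6 CPM in rod libraries (-0.70 ± 0.95, adjusted p 0.726). The groups overlapped, cone replicate 2 was the highest of the cone libraries, and the mean was higher in rod libraries. Of 13 rod phototransduction genes 10 were positive, with a median of 0.65. Of 21 shared outer segment and terminal genes 19 were positive, with a median of 0.95. Rbp3, the interphotoreceptor retinoid binding protein, had 960.4, 942 and 623 CPM against 72.9, 167 and 120.4 CPM (2.80 ± 1.03, adjusted p 0.0906), and Gucy2e, a photoreceptor guanylate cyclase, had 43.5, 63.0 and 20.2 CPM against 2.70, 5.72 and 5.55 CPM (3.15 ± 1.07, adjusted p 0.0649). Both were far apart in these libraries and not called in the model of all libraries. The common coefficient of biological variation, 1 value for all genes, was 0.213 in that model. It was 0.147 in cone and 0.160 in rod libraries of day 5 alone. This value does not give the spread of Rbp3 or Gucy2e, and why they were not called was not tested. In a model of the 6 libraries alone 10 of the 22 fate factors and 10 of the 21 shared genes were called, all higher, and with voom quality weights 9 and 10. Of the 13 rod genes 2 were called in the model of the 6 libraries and 3 with voom quality weights.

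**Figure D5:**
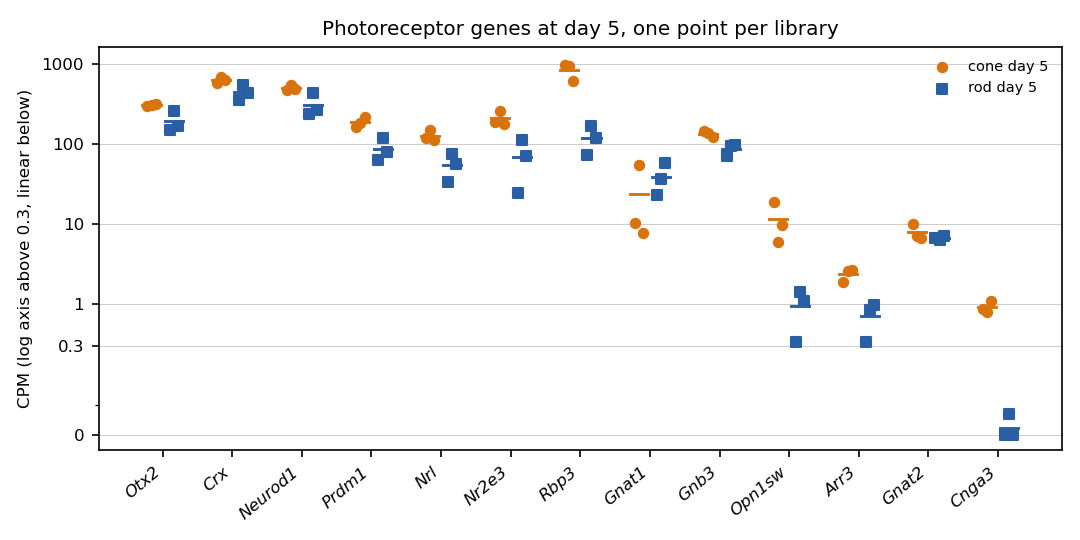
Levels of 13 photoreceptor genes at day 5 in CPM (vertical, log above 0.3 and linear below), a point per library and a bar at the mean of each group of 3. All cone libraries are above all rod libraries for Otx2, Crx, Nrl, Nr2e3, Rbp3, Opn1sw and Arr3, while Gnat1 and Gnat2 overlap.

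Markers of other retinal neurons differed mainly for amacrine and horizontal cells, with 4 higher and 2 lower of 16 tested and a median of 0.99. Gad2, an enzyme that makes GABA, had 56.6, 51.0 and 46.7 CPM in cone libraries and 9.66, 9.29 and 11.4 CPM in rod libraries. Tfap2a, a factor of amacrine and horizontal precursors, had 69.0, 67.4 and 55.7 CPM against 11.7, 20.6 and 27.7 CPM. Neither overlapped, with differences of 2.34 ± 0.48 (adjusted p 0.00184 by edgeR) and 1.67 ± 0.42 (adjusted p 0.0116). Tfap2c (2.69 ± 0.69, adjusted p 0.0124) and Npy (2.55 ± 0.78, adjusted p 0.0382) were also higher. Ptf1a, a factor of the proneural list that specifies both cell types, had 1.00, 0.122 and 1.34 CPM in cone and 0, 0.0715 and 0 CPM in rod libraries. Cone replicate 2 was thus close to rod replicate 2. Pooled, this was 40 counts against 1, a ratio of 30.7 with a 95% counting interval of 5.20 to 1242. That interval leaves out the spread between libraries. Prdm13, another factor of amacrine fate named among the largest rises, had 32.6, 25.8 and 36.0 CPM against 1.46, 3.93 and 3.61 CPM (3.34 ± 0.53, adjusted p 0.000123). Calb1, a calcium binding protein of horizontal cells, was lower with 41.3, 27.0 and 29.1 CPM against 161, 114 and 94.1 CPM (-1.92 ± 0.30, adjusted p 0.000115), as was the horizontal cell factor gene Prox1 (-0.69 ± 0.14, adjusted p 0.00259). A single member, Gad2, was called higher without rod replicate 1. That fit lost Tfap2a (adjusted p 0.0895) and Tfap2c, while the call of Npy was lost without any 1 of the 6 libraries (adjusted p 0.0512 to 0.153).

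Of 19 ganglion cell and 12 bipolar cell markers 0 were called in the main edgeR model, with medians of 0.44 and -0.10. In that model 3 of each had an unadjusted p under 0.05. DESeq2 called 2 and 0, voom quality weights 1 and 1, and a model of the 6 libraries alone 5 and 3. Of 18 proneural genes Ptf1a was the call (5.56%, against 9.28% of all genes tested), lost without cone replicate 3 (0.0621), rod replicate 1 (0.0679) or rod replicate 3 (0.0737). Atoh7, which specifies ganglion cells, had 0.334, 0.182 and 0.872 CPM against 0.337, 0.214 and 0.0694 CPM (1.25 ± 0.94, adjusted p 0.478 by edgeR). The groups overlapped at these low levels. Of 14 Muller glia markers, many of which progenitors also express, 5 were called lower and 0 higher. Dkk3, a secreted protein of progenitors and glia, had 384, 259 and 303 CPM in cone libraries and 1046, 858 and 978 CPM in rod libraries (-1.61 ± 0.18, adjusted p 1.60e-06). The potassium channel gene Kcnj10 had -1.20 ± 0.29 (adjusted p 0.00770). The other calls were Sox9, Abca8a and Cp, each lost without at least 5 of the 6 libraries taken singly, and the count was 2 without any 1 cone replicate or without rod replicate 1 or 3. Of 7 tested astrocyte markers Aldoc, which also encodes an aldolase, was called higher (1.50 ± 0.38, adjusted p 0.0121), a call lost without cone replicate 1 (0.0855) or rod replicate 2 (0.0662).

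Collagen genes differed in both directions, with 3 of 20 called higher in cone cells, 2 called lower and a median of 0.80. Col1a1, the main chain of collagen I, had 27.4, 17.0 and 53.1 CPM in cone libraries and 0.786, 0.357 and 0.694 CPM in rod libraries. Every cone library was far above every rod library, with cone replicate 3 the highest (5.75 ± 0.81, adjusted p 3.00e-05 by edgeR). The other collagens called higher were Col8a1 (3.17 ± 0.57, adjusted p 0.000578) and Col6a2 (3.03 ± 0.91, adjusted p 0.0338), and those called lower were Col18a1 (-1.82 ± 0.32, adjusted p 0.000538) and Col9a1 (-1.30 ± 0.34, adjusted p 0.0127). In a model of the 6 libraries alone the split was 10 higher and 2 lower. Calls of Col6a2 and Col9a1 were lost without 4 and 3 of the libraries (adjusted p 0.0570 to 0.139 and 0.0525 to 0.0835). Outside that list, 2 matrix genes were among the largest rises. The cross-linking enzyme gene Lox had 9.15, 5.47 and 6.45 CPM against 0.562, 0.643 and 0.555 CPM (3.55 ± 0.50, adjusted p 3.09e-05), and the laminin gene Lama3 had 11.1, 6.26 and 13.3 CPM against 0.674, 1.43 and 0.486 CPM (3.53 ± 0.50, adjusted p 3.44e-05).

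Markers of mesenchyme and pericytes also went both ways, with 7 of 13 tested positive, 6 negative and a median of 0.17. Of these 3 were called higher, Acta2 (3.08 ± 0.51), Twist1 (3.35 ± 0.67) and Prrx1 (2.24 ± 0.56), and 1 lower, Foxc1 (-1.97 ± 0.43), with adjusted p of 0.000218, 0.00159, 0.0107 and 0.00366 by edgeR. Prrx1 was not called without cone replicate 3 (0.0899), rod replicate 2 (0.0740) or rod replicate 3 (0.0592). The summed level of the 15 markers was 63.5 to 124 CPM in cone libraries and 25.9 to 102 CPM in rod libraries, and the ranges overlapped. The defining marker Dcn was at 0, 0 and 0 CPM in cone libraries and 0.786, 0.286 and 0.486 CPM in rod libraries, 0 counts against 18 in all, and was not called (adjusted p 0.293). Lum was at 0.0668, 0 and 0 CPM against 0.112, 0 and 0.0694 CPM, 1 count against 2 in all. The part of such cells in the collagen result was not tested. Summed microglia markers were 14.0 to 23.7 CPM against 4.43 to 20.0 CPM with 0 of 11 called by edgeR. Of endothelium markers 0 of 5 and of pigment epithelium markers 0 of 2 were called, in all 3 lists 0 had an unadjusted p under 0.05 and DESeq2 called 0, and Rpe65 was at a count of 0 in all 6 libraries. With voom quality weights, and in a model of the 6 libraries alone, 1 of the 2 pigment epithelium markers was called. Those fits called 0 of the microglia and endothelium markers. Lens markers summed to 2.86 to 4.21 CPM and 4.58 to 9.10 CPM, with the crystallin genes Crybb1 and Crybb3 called lower, calls lost without rod replicate 1 (0.0881) for the first and without cone replicate 2 (0.0667) or rod replicate 3 (0.0522) for the second. The globin genes of the erythroid list were at a count of 0 in every library of day 5.

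Among the largest rises outside the lists, Otog, which encodes otogelin, a glycoprotein of the inner ear, had 189, 86.5 and 123 CPM in cone libraries and 5.05, 11.9 and 11.1 CPM in rod libraries. Its neighbour Ush1c, which encodes the scaffold protein harmonin, had 20.3, 16.5 and 19.5 CPM against 0.449, 1.86 and 0.972 CPM. Both were far higher in every cone library, with 3.80 ± 0.49 (adjusted p 1.00e-05 by edgeR) and 4.03 ± 0.75 (adjusted p 0.000881). The genes lie side by side on chromosome 7 of GRCm38, Ush1c from 46195350 to 46238503 on the minus strand and Otog from 46240987 to 46311434 on the plus strand, without overlap. Cavin2, a coat protein of caveolae (4.07 ± 0.62, adjusted p 9.05e-05), and Plekha2, an adaptor that binds membrane lipids (3.39 ± 0.44, adjusted p 1.10e-05), were also higher. The mucin gene Muc2 (3.75 ± 1.07, adjusted p 0.0251) was not called without cone replicate 2 (0.0709), rod replicate 1 (0.119), rod replicate 2 (0.0639) or rod replicate 3 (0.0843).

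Among the largest falls, Tnfrsf1b, a receptor for tumour necrosis factor, had 1.40, 0.730 and 1.39 CPM in cone libraries and 35.4, 18.4 and 34.8 CPM in rod libraries (-4.64 ± 0.44, adjusted p 1.35e-07 by edgeR). Slc13a5, a citrate transporter, had 4.01, 3.71 and 4.48 CPM against 72.3, 41.5 and 70.5 CPM (-3.91 ± 0.36, adjusted p 4.97e-08). Both were far below the rod libraries in each cone library. Piezo2, a mechanically gated channel (-4.46 ± 0.67, adjusted p 7.14e-05), Itgb4, an integrin subunit of epithelia (-4.42 ± 0.50, adjusted p 1.26e-06), and Rcsd1, an actin capping regulator (-4.63 ± 0.68, adjusted p 4.80e-05), were the others named by the rule outside the lists. For Itgb4 the difference was -0.63 at day 12, and the change from day 5 was called (adjusted p 0.00183).

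Of the 14 interferon response genes 3 were called higher and 1 lower. The antigen presenting class I genes H2-K1 and H2-D1 had 8.55, 4.62 and 4.71 and 17.0, 8.88 and 5.58 CPM in cone libraries and 1.35, 1.07 and 1.94 and 2.36, 1.72 and 3.61 CPM in rod libraries. Every cone library was above every rod library, with cone replicate 1 the highest (2.01 ± 0.32 and 2.01 ± 0.35, adjusted p 0.000147 and 0.000477 by edgeR). Class I genes are near-identical copies of each other, so reads may be split between them. B2m, the light chain that pairs with both, was lower with 9.42, 5.05 and 7.09 CPM against 16.8, 15.9 and 11.9 CPM (-1.05 ± 0.21, adjusted p 0.00178). Stat2 was called higher (0.59 ± 0.17, adjusted p 0.0270), and lost its call without any cone replicate or without rod replicate 1 or 2 (adjusted p 0.0512 to 0.105). Ifit1 and Isg15, strong targets of interferon, were at the level of single counts.

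Of the 1685 genes called at day 5, 855 were called at neither day 0 nor day 12 and 176 at both. Of those shared with day 0, 536 of 546 had the same sign, and of those shared with day 12, 446 of 460. Shared genes were 32.4% of the day 5 calls and 41.4% of the 1320 calls at day 0, which were 7.27% of genes tested (2.5% higher and 4.77% lower in cone cells). They were 27.3% of the day 5 calls and 25.1% of the 1833 calls at day 12, which were 10.1% of genes tested (5.98% higher and 4.12% lower). A call at day 5 without a call at another day does not show that the difference changed. The tested change was called for 54 of the day 5 genes from day 0 to day 5 and for 298 from day 5 to day 12.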

How the data were processed

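Total RNA of mouse retinal progenitor cells was sequenced with low-input Takara kits, per the labels, in 11 groups of 3 libraries. The submitters' processing notes list HISAT2, StringTie, HTSeq and GRCm38, without versions; the strand setting is not given in the sources used here. The authors deposited unnormalised counts per gene, used for all results, and tables that, per the file headers, hold TPM, FPKM and coverage. TPM served as an alternative only, since the mitochondrial gene mt-Nd6, on the other strand from mt-Nd5, was above it in TPM in 33 of 33 libraries and in counts in 0. Summary lines that name no gene were left out; genes held 27.8% to 34.7% of counted reads at day 5.

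Counts were filtered with filterByExpr (minimum count 10) to 18150 genes, scaled by TMM and fitted in 1 quasi-likelihood model with edgeR 4.0.16 (limma 3.58.1, R 4.3.3); SEs come from its F statistic. Levels were tabulated in Python 3.11.15 (pandas 2.3.3; numpy 2.4.6; scipy 1.17.1) and drawn with matplotlib 3.10.9. On simulated data of 17987 genes the day 5 test recovered 47.5% of 2-fold and 73.5% of 4-fold changes, with 3 false calls.

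The 27 pathway and 11 marker lists (554 genes, 501 tested) and the members of the comparison were chosen with earlier results of these data known. Lists have no test and are described by counts. These are to be read against the shares of all genes tested, 9.28% called, 3.48% higher and 5.8% lower. Named are a fixed set of retinal and retinoic acid genes, the 12 largest rises and the 12 largest falls among calls whose groups do not overlap and whose average log2 CPM is 1 or more, up to 4 calls per list and direction by p, and the 4 smallest p per change between days and direction, passing over Gm and Rik symbols; a few genes that this names are not reported here. Alternatives were DESeq2 1.42.0 and its size factors, no filter or a mean of 1 CPM, voom weights, the compared libraries alone, a replicate block, TPM with a pseudocount of 1, and leaving out each library. Promoters are from RefSeq.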

Additional observations from a re-analysis of the deposited data

Results flagged for a closer look

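For these genes the cone minus rod difference itself was tested between days by edgeR and changed, n = 3 libraries per group. From day 0 to day 5 the difference rose by 3.20 for Rarb and 3.34 for Hk2 (log2, adjusted p 0.000201 and 0.000201), which are described above. It rose by 3.91 for the class I gene H2-K1 (adjusted p 0.000201), from -1.90 to 2.01, and by 5.64 for Pdlim3, a protein of actin filaments, from -6.23 to -0.59 (adjusted p 3.45e-05). The rod level of Pdlim3 was 54.0, 51.1 and 56.5 CPM at day 0 and 55.6, 40.7 and 62.8 CPM at day 5, and the cone level 1.01, 0.566 and 0.629 CPM and 59.9, 20.7 and 25.3 CPM, so cone levels were higher at day 5 and rod levels near those of day 0. The difference went down for 4 genes whose difference was positive at day 0 and negative at day 5. These changes were -2.07 for Shisa9, -1.20 for Apc2, -1.09 for Ahcyl2 and -0.92 for Tanc2 (adjusted p 0.00157, 0.00409, 0.00420 and 0.00485).

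From day 5 to day 12 the difference changed by -2.81 for Hk2 and by -2.15 for Pfkl (adjusted p 0.000669 and 0.00167 by edgeR). For Pcdh7, a protocadherin, it changed by 1.51, from -1.83 ± 0.14, with 118, 121 and 117 CPM in cone and 467, 417 and 380.2 CPM in rod libraries at day 5, to -0.32 (adjusted p 0.000350). It changed by 3.27 for Col7a1, which did not differ detectably at day 5 (0.32 ± 0.31) and was at 3.58 at day 12, by 1.06 for Klf3 and by 1.26 for Mum1l1. It changed by -2.04 for Pde8b, to -2.31, and by -1.69 for the fatty acid carrier gene Fabp5, from 0.56 to -1.14. Adjusted p-values of these last 5 genes were 0.000413, 0.00142, 0.00142, 0.00142 and 0.00149.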

How the results depend on the processing

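The number of genes called at day 5 stayed within 1.5 times of 1685 under 5 other fits of all 33 libraries (1468 to 2039). It was 3371 with voom quality weights, 2780 with the 6 libraries alone, 2733 with the 6 libraries alone and a replicate block (an alternative added after seeing the data), and 192 with TPM, which shared 58 genes with the 1685. Leaving out 1 library gave 891 to 1348, the lowest without rod replicate 1. The calls for the change from day 0 to day 5 went from 102 to 270 with DESeq2, 387 with voom and 295 with the libraries compared, and to 41 to 87 without 1 library, the lowest without cone day 5 replicate 1. They were 67 and 47 without cone primed replicates 2 and 3, 55 and 51 without rod primed replicates 1 and 2, and 61, 50 and 52 without rod day 5 replicates 1, 2 and 3. The calls for the change from day 5 to day 12 went from 583 to 1217 with DESeq2, 2379 with voom and 67 with the libraries compared. Without 1 library they ran from 84 (without cone day 12 replicate 3) to 2087 (without rod day 12 replicate 1). They were 112 without rod day 5 replicate 1, 134 without rod day 12 replicate 2, 1136 and 261 without cone day 12 replicates 2 and 1, 192, 187 and 300 without cone day 5 replicates 1, 2 and 3, 345 without rod day 5 replicate 3 and 364 without rod day 12 replicate 3. The share called upward in that change, 65.2%, was 47.3% to 71.3% without 1 library, and under 50% without cone day 5 replicate 2 or 3. The cause of these shifts was not tested.

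The replicate numbers did not pair the libraries (correlations of same-numbered deviations 0.029, 0.143 and -0.168). With the replicate block 1736 genes were called at day 5, 113 for the change to day 5 and 742 for the change to day 12, and 2 of the named genes lost their call. Over the named genes, leaving out a library lost a call in 120 of 822 fits and gave a new one in 3. Tbx5, at -0.25, ran from -0.75 without rod replicate 2 to 0.19 without rod replicate 1.

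TPM turned the sign of 19 named genes and lost the call of 70 others. The turned values were 0.072 for Rarb, -0.15 for Thrb, -0.00434 for Rax, -0.22 for Slc16a3, -0.022 for Ush1c, 0.76 for Itgb4, 0.0995 for Pcna, 0.081 for Smad9, -0.035 for Ltbp2, -0.43 for Ccn2, 0.17 for Fzd1, -0.38 for Fgf2, -1.13 for Col8a1, -0.13 for Stat2, -0.21 for Pfkl, 0.014 for Kcnj10, 0.86 for Cp, 0.099 for Apc2 and -0.015 for Col7a1. Of genes at 10 CPM or more, 15.4% to 24.0% were listed at 0 TPM in the libraries of day 5, and the cause was not tested. The depth limits what can be seen of Sox15, Opn1mw and other genes under about 1 CPM.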

Other observations

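The 12 genes given here lie outside the lists and were picked singly after their values were seen, so they stand for no pathway, and their calls are not to be read against the 9.28% of all genes called. Bnip3, a mitophagy receptor, had 48.2, 36.1 and 34.5 CPM in cone libraries and 17.0, 11.4 and 9.72 CPM in rod libraries (1.65 ± 0.39, adjusted p 0.00641 by edgeR). The oxygen sensor genes Egln3 (2.20 ± 0.58, adjusted p 0.0153) and Egln1 (0.53 ± 0.13, adjusted p 0.00736), the glucose transporter gene Slc2a3 (1.53 ± 0.35, adjusted p 0.00532) and Stc2, a secreted stanniocalcin (2.60 ± 0.35, adjusted p 1.49e-05), were also higher in cone cells. The call of Egln3 was lost without cone replicate 1 (0.106) or rod replicate 1 (0.0895). Epas1, which encodes the alpha subunit of a hypoxia inducible factor, was lower, with 101, 45.6 and 59.9 CPM in cone libraries and 546, 337 and 717 CPM in rod libraries (-2.96 ± 0.39, adjusted p 1.41e-05). Its difference was -3.09 at day 0 and -2.83 at day 12. Pfkfb3 (-0.86 ± 0.27, adjusted p 0.0434), Gbe1 (-0.63 ± 0.18, adjusted p 0.0209) and Car12 (-2.63 ± 0.62, adjusted p 0.00668) were lower as well, but Pfkfb3 lost its call without any 1 of the 6 libraries (adjusted p 0.0528 to 0.182), Gbe1 without cone replicate 2 (0.106), cone replicate 3 (0.137), rod replicate 1 (0.0700) or rod replicate 2 (0.103) and Car12 without rod replicate 3 (0.0833). Hif1a (0.25 ± 0.13, adjusted p 0.266), Vegfa (1.16 ± 0.45, adjusted p 0.106) and Adm (0.52 ± 0.34, adjusted p 0.381) were not called.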
